A study of Mus musculus with 16 samples.

Results

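The 267 genes described here lost translational efficiency in mouse embryonic stem cells without Nat1, also named Eif4g2. Translational efficiency (TE) was taken for each culture as log2((RPF + 1)/(total RNA + 1)), where RPF is the normalised count of ribosome-protected fragments of a gene and total RNA is its normalised RNA-seq count. The table held 21977 genes, and 10790 of them had a mean of at least 50 in both assays and were eligible. A gene was chosen when the highest TE of the 3 Nat1-/- cultures lay below the lowest TE of the 5 other cultures and the Nat1-/- mean was at least 0.6 lower than the mean of those 5. Of the eligible genes, 846 (7.84%) met the first condition and 277 (2.57%) met both. The mirror image held for 700 genes (6.49%) in the first condition and for 61 genes in both. The targeted gene, some named genes and some symbol families were left out by name, which removed 10 of the 277 and left 267 (2.47% of the eligible genes). The genes were thus chosen by the TE difference between Nat1-/- and the other cultures, which is given below as a description without a test.

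The cells were of the mouse embryonic stem line RF8, cultured on gelatin in medium that contained LIF. There were 2 wild-type (WT) cultures (WTex1 and WTex2), 3 heterozygous Nat1+/- cultures (A7, B4 and C1) and 3 Nat1-/- cultures (B12, B2 and C3). Each mutant culture was a clone, so genotype and clone history cannot be told apart, and the 2 WT cultures came from the same line. Each culture gave 1 ribosome profiling library and 1 total RNA library. Nothing in the labels says that the WT cultures were independent, so p-values measure the spread between these cultures only. Values are listed below in the order WTex1, WTex2, A7, B4, C1, B12, B2, C3.

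Ribosome profiling sequences the short mRNA stretches that translating ribosomes protect from nuclease, and dividing them by the RNA of the same gene gives a measure of ribosomes per transcript. NAT1 is a relative of the scaffold protein eIF4G that lacks the part that binds the cap-binding protein eIF4E. It binds the helicase eIF4A and the initiation factor eIF3 and takes part in starting translation on a subset of mRNAs. Mouse embryonic stem cells without it self-renew but differentiate poorly.

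Cap-dependent initiation begins at the transcript's first bases, so the windows around the annotated start of 4 of the genes with the largest TE loss are shown, from 100 bases before the start to the 10th transcribed base. Capitals mark the 10 transcribed bases. They come from RefSeq on GRCm38.p6 and lie on the plus strand at chr4:129058044-129058153 for Rnf19b, chr10:75060796-75060905 for Bcr, chr8:83899998-83900107 for Adgrl1 and chr1:89454711-89454820 for Agap1.
Rnf19b: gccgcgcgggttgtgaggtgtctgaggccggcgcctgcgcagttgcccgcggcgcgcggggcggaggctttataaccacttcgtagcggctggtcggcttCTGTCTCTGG
Bcr: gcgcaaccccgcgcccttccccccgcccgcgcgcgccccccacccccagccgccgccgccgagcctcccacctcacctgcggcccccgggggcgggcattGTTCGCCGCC
Adgrl1: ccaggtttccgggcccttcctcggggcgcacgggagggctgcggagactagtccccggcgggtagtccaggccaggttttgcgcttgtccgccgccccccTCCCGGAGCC
Agap1: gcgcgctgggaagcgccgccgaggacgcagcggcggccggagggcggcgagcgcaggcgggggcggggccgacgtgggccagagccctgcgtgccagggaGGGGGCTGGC
None of the 4 starts with the 5′ terminal oligopyrimidine pattern. It was searched on the transcribed strand as C at the first base followed by at least 4 pyrimidines. Of all 32851 starts searched, 2.51% have it, so its absence from 4 starts was likely in any case and nothing is read from it. RefSeq starts were found for 213 of the 267 genes (79.8%), which is under 80%, so a check of base composition or start patterns over the whole set is void and is not given.

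Nat1-/- cultures had normalised Eif4g2 footprint counts of 922 to 1114, compared with 7275 to 10261 for Nat1+/- and 13862 to 17666 for WT. RPF libraries held 17.5 to 23.8 M counted reads. Total RNA libraries held 33.6 to 42.6 M in both WT cultures and B12 but 13.2 to 16.4 M in the other 5, so Nat1+/- against WT is also a comparison of shallow with deep total RNA libraries and the effects cannot be told apart from the design alone. The 10 markers of embryonic stem cells were present in every culture, with summed RPF of 66169 to 73042 in WT, 89610 to 111937 in Nat1+/- and 157246 to 163653 in Nat1-/-. Not every marker followed the sum. Pou5f1 was lower in Nat1+/- (11136 to 14984) than in WT (16894 and 17038). In Nat1-/-, Fbxo15 (2261 to 4265) and Utf1 (4595 to 11342) overlapped WT (3852 and 4727 for Fbxo15, 6463 and 6191 for Utf1). The 10 fibroblast markers summed to an RPF of 21509 to 41580 in WT, 54567 to 96165 in Nat1+/- and 19076 to 74112 in Nat1-/-. Most of that was Fn1, with 12116 and 25424 in WT and 54006 to 95663 in Nat1+/-. The other 9 together went the other way, with a summed RPF of 9393 to 16156 in WT, 502 to 2088 in Nat1+/- and 163 to 188 in Nat1-/-, although Thy1 among them was higher in Nat1+/- (219 to 328) than in WT (121 and 162). Postn, Lum, Dcn, Col3a1 and Col1a2 were at 0 in at least 1 RPF library.

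The median TE difference was -0.78 on the log2 scale (quartiles -0.94 and -0.69), against 0.03 for all eligible genes. Among the 12 genes with the largest loss were Tgfb2, Rnf19b, Myom2, Bcr, Adgrl1, Agap1, Lpl, Zcchc14, Sema3f, Spred1 and Map3k9. The space between the lowest of the 5 other cultures and the highest Nat1-/- culture had a median of 0.31. It was widest for Rnf19b (1.24), Rbms2 (0.98), Mprip (0.97), Man2a2 (0.87), Atp11a (0.86) and Bcr (0.77). Within pairs of like total RNA depth, the median difference was -0.85 for B2 and C3 against the 3 Nat1+/- cultures and -0.75 for B12 against the 2 WT cultures, and every gene was lower in both, which the rule itself fixes. At the edge of the rule, Pacs2 and Ppp1cc (-0.602) and Panx1, Golph3 and Atp13a3 (-0.603) lay just inside, while Tial1, Fjx1, Wac, Col1a1 and Vps54 (-0.600 to -0.595) lay just outside.

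**Figure D1:**
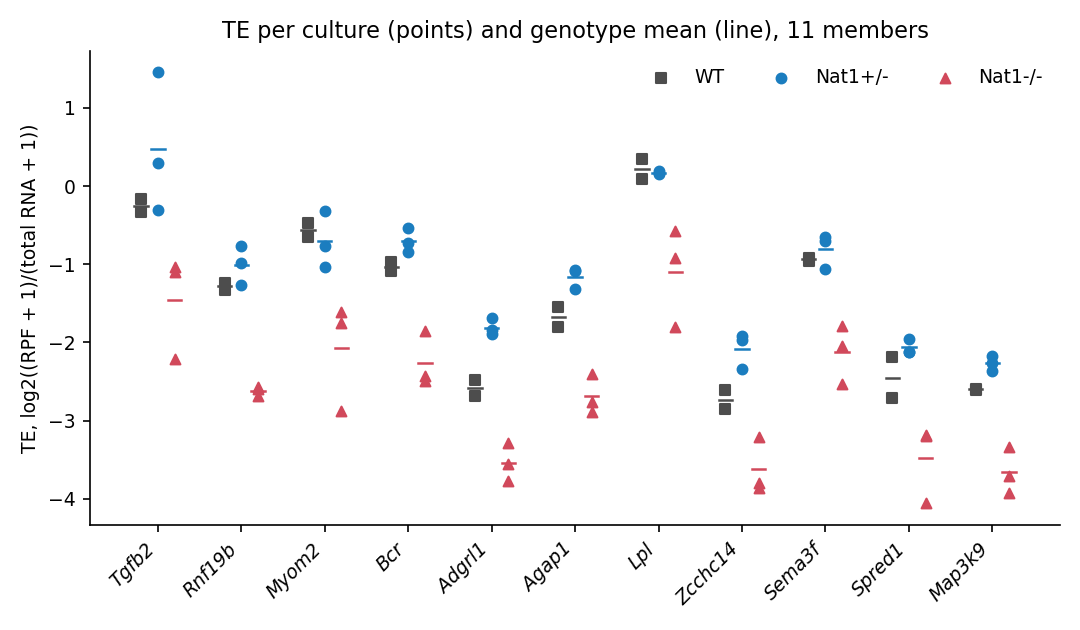
TE (log2 scale) in each of the 8 cultures for 11 of the 12 genes with the largest loss. Each point is 1 culture and each line a genotype mean, and in each gene the 3 Nat1-/- points lie below the other 5, as the rule requires.

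Rnf19b encodes an E3 ubiquitin ligase of the RING-between-RING type. Its normalised RPF counts were 429, 388, 550, 429, 449, 292, 280 and 244, and its total RNA counts were 1074, 914, 936, 1032, 888, 1881, 1692 and 1449. The footprints of the Nat1-/- cultures were the lowest and their RNA the highest, without overlap in either. TE was -1.11 ± 0.23 (SD, n = 5) in the other cultures and -2.61 ± 0.06 (SD, n = 3) in Nat1-/-.

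Small GTPases switch between an active and an inactive state, and exchange factors and GTPase-activating proteins set that switch. On the list of their regulators, 13 of 125 eligible genes (10.4%) were among the 267, against 2.47% of all eligible genes. The list was built from symbols and leaves out the families removed by name, and it takes in the lipid transfer gene Stard7. Bcr, a GTPase-activating protein for RAC, had RPF counts of 469, 512, 523, 504, 507, 384, 396 and 426 and total RNA counts of 996, 1007, 759, 833, 909, 2164, 2133 and 1542. All 3 Nat1-/- cultures had the fewest footprints and the most RNA, and the RNA difference (1.10 on the log2 scale) was larger than the RPF difference (-0.32). TE was -0.83 ± 0.21 (SD, n = 5) against -2.26 ± 0.35 (SD, n = 3), with C3 at -1.85 as the highest of the Nat1-/- cultures. Agap1, a GTPase-activating protein for ARF, had RPF counts of 502, 541, 937, 810, 909, 426, 365 and 394. Its TE was -1.36 ± 0.31 (SD, n = 5) against -2.69 ± 0.25 (SD, n = 3). Agap3 (-1.03) and the CDC42 exchange factor Fgd1 (-1.01) followed, and Trio, Tiam1, Rapgef2 and Rasa1 were also present with differences between -0.72 and -0.62.

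Kinases and transcription regulators had the most genes of any list. Of the 233 eligible genes on the kinase list, 19 (8.15%) were among the 267. All family lists were taken from symbols and are incomplete, so their counts depend on which symbols they hold. The kinase list took in the regulatory subunit gene Pik3r2 and left out kinase genes of the 267 such as Mark4, Wnk2 and Nuak1. Leading that list were Map3k9 (-1.26), a mixed-lineage kinase of the JNK pathway, Hipk1 (-1.25), a nuclear kinase, and Pik3ca (-1.23), the catalytic subunit of phosphoinositide 3-kinase. Hipk1 RPF counts were 504, 462, 588, 464, 525, 443, 398 and 412, while its total RNA counts were 2650, 2069, 2083, 1573, 2038, 4790, 4182 and 3267. Nat1-/- footprints lay a little below the lowest other culture, and RNA lay above every other culture. In Rock1, a kinase that acts on the actin cytoskeleton, footprints alone were separated. Its RPF counts were 1177, 1549, 1598, 1961, 1609, 666, 631 and 777, all lower in Nat1-/-, and its RNA overlapped. Mast2 (-1.14) was next on the list after Pik3ca. Spred1 (-1.26), outside the list, encodes an inhibitor of RAS signalling.

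Phosphatases reverse the action of kinases, and 8 of 132 eligible genes of that list (6.06%) were present. They were Dusp7 (-0.96) and Dusp4 (-0.71), which dephosphorylate MAP kinases, the PP2A subunits Ppp2r5a (-0.89) and Ppp2cb (-0.70), Ppm1a (-0.90), Ppp1r14b, Ppp3ca and Ppp1cc. Ppm1a RPF counts were 1653, 1532, 1473, 1446, 1461, 950, 1211 and 955, lower in every Nat1-/- culture, with total RNA that overlapped. Dusp4 differed in that both assays were far lower in Nat1-/-, with RPF of 896, 1140, 803, 678, 851, 32.4, 71.0 and 79.7.

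Of the ubiquitin ligases and proteases, 18 of 301 (5.98%) were among the 267. After Rnf19b came the F-box gene Fbxl14 (-1.03), the protease Usp31 (-1.02) and Rnf10 (-0.99). Smurf1 (-0.78) and Smurf2 (-0.81), ligases that act on TGF-beta receptors and SMADs, were present together. Fbxw7 (-0.69) marks cyclin E and MYC for breakdown. Trim71, a stem cell protein that also binds RNA, had footprints of 4107, 4124, 3676, 3482, 4746, 5919, 5038 and 3789, which overlapped. Its RNA counts were 18479, 18801, 14205, 13359, 17358, 40523, 37622 and 27233, all higher in Nat1-/-.

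Transcription factors and co-regulators gave 19 of 255 (7.45%). Bcl9l (-1.17) is a coactivator of beta-catenin, Med13 (-1.14) and Med13l (-1.03) are alternative subunits of the Mediator kinase module, and Rfx7 (-1.13) is a winged-helix factor. The related pair Med13 and Med13l differed in which assay was separated. Med13 RPF counts were 552, 755, 685, 1156, 678, 227, 279 and 400 with overlapping RNA. Med13l RPF counts were 827, 964, 1287, 965, 1150, 905, 803 and 884, which overlapped, and its RNA was higher in every Nat1-/- culture. Smad3 (-0.71) and Smad4 (-0.74), which carry the TGF-beta signal to the nucleus, showed the same 2 patterns, with lower RPF for Smad3 and higher RNA for Smad4. Chromatin genes gave 6 of 186 (3.23%), led by Phf12 (-0.93), the acetyltransferase gene Ep300 (-0.87), the methylcytosine oxidase gene Tet3 (-0.73) and Brd1 (-0.69). Ep300 total RNA was 3460, 3395, 3453, 3361, 3227, 8395, 6595 and 5111, and its footprints overlapped.

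Apc, Axin1 and Lgr4 are described as single genes that were picked after their values were seen. Apc and Axin1 are scaffolds of the complex that degrades beta-catenin, and Lgr4 is a receptor for R-spondins. Apc RPF counts were 971, 1263, 1428, 1533, 1436, 745, 594 and 605, lower in each Nat1-/- culture, and its TE was -1.27 ± 0.09 (SD, n = 5) against -2.01 ± 0.06 (SD, n = 3). Lgr4 RPF counts were 2216, 1938, 2191, 1759, 1865, 965, 1216 and 984. Axin1 went the other way in footprints. Its RPF counts were 868, 824, 784, 829, 849, 1071, 901 and 897, highest in Nat1-/-, while its RNA counts of 1921, 1667, 1265, 1339, 1356, 3294, 2823 and 2569 differed by more.

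RNA-binding, decay and translation genes gave 4 of 288 (1.39%), against 2.47% of all eligible genes, a share that depends on which symbols the list holds. These were Rbms2 (-1.19), Atxn7l3 (-0.93), Larp1 (-0.78) and Zc3h7b (-0.66). The list takes genes by symbol, and Atxn7l3 is a subunit of a histone deubiquitinating module. LARP1 binds mRNAs with a terminal oligopyrimidine start. Larp1 RPF counts were 4076, 4961, 3754, 4035, 3873, 2614, 2187 and 2152, all lower in Nat1-/-, although in TE WTex1 (-1.33) and C3 (-1.33) nearly met. The RNA-binding genes Mex3c (-1.09), Mex3a (-1.08) and Mex3d (-0.96) were also among the 267 although outside that list. Vesicle and membrane genes gave 11 of 521 (2.11%), among them Atp11a (-1.17), Epn1 (-0.99) and Trappc8 (-0.79). Cytoskeleton and junction genes gave 7 of 167 (4.19%), led by Camsap1 (-1.07), Cep170b, Camsap2 (-0.91) and Tanc2 (-0.86). Both CAMSAP proteins bind the minus ends of microtubules.

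Among 22 eligible genes with described internal initiation, 1 (4.55%), Apaf1, was one of the 267, against 2.47% of all eligible genes. Of 19 with described regulatory upstream reading frames, 0 (0%) were. Lists this short cannot show a larger or a smaller share. Apaf1, the core of the apoptosome, had RPF counts of 803, 1023, 1799, 1489, 1891, 516, 751 and 1016. C3 lay within the range of the WT cultures in RPF, and the TE difference was -0.80. In all, 106 of the 267 genes were on at least 1 list and 161 on none. The shares of these lists are descriptions, and the same rule that chose the genes fixes their direction.

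Some of the largest losses were in genes that Nat1-/- cultures hardly expressed. Among the 5 genes whose footprints were furthest below the other cultures were Col1a2 (-5.96), Piwil4 (-5.10), Lpl (-4.21) and Rasd2 (-4.14), and their RNA also lay below every other culture. Lpl, lipoprotein lipase, had RPF counts of 496, 447, 730, 999, 700, 41.0, 36.4 and 26.2. At this depth TE rests on few reads: 11 genes (among them Ap1s3, Cnn1, Col1a2, Colec12, Myom2, Nkd2, Piwil4, Rasd2, Tgfb2 and Timp3) had fewer than 10 reads in at least 1 library, and 256 of the 267 had at least 10 in all 16. All 267 passed the filter on low values used for testing, some of them through the cultures in which they were high. Col1a2, itself on the fibroblast list, had RPF counts of 412, 1362, 13.0, 113, 45.1, 0, 3.55 and 1.14. The summed level of the 9 fibroblast markers other than Fn1, which include it, was likewise highest in WT and lowest in Nat1-/-, and their part in its values was not tested.

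Both RPF and RNA differed. Mean RPF was below that of the other cultures in 216 of 267 genes (median -0.46, against 0.09 for the eligible genes), and mean total RNA was above it in 190 (median 0.34, against 0.08). Both held in 139 genes, both means were lower in 77, and both were higher in 51. Every Nat1-/- RPF count lay below the other cultures in 121 genes, against 14.1% of all eligible genes. Every RPF count lay above in 15 genes, against 18.3%. Every total RNA count lay above in 96 genes, against 20.2%, and below in 28, against 14.5%. These shares belong to the contrast that chose the genes, and nothing is read from them.

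By both assays together, 76 genes (28.5%, against 3.70% of the eligible genes) had lower footprints and overlapping RNA, and 64 (24.0%, against 7.41%) had overlapping footprints and higher RNA. Both were lower in 28 (10.5%, against 10.2%) and both higher in 15 (5.62%, against 12.6%). Lower footprints with higher RNA were found in 17 (6.37%, against 0.213%), and 67 (25.1%, against 55.9%) overlapped in each assay. The 15 genes with more footprints in every Nat1-/- culture were Igsf21, Ankrd33b, Metrn, B4galt6, Foxo6, 2510039O18Rik, Zcchc24, Rxra, Fam131c, Trim8, Pmepa1, Axin1, Tet3, Aes and Ankib1. Total RNA was furthest above the other cultures for Ankrd33b (3.32), Igsf21 (3.17), Foxo6 (2.34), Pmepa1 (2.11) and Metrn (1.87). Pmepa1, an inhibitor of TGF-beta signalling, had total RNA of 455, 351, 367, 253, 392, 2506, 1555 and 954 and RPF of 109, 98.8, 140, 91.1, 158, 357, 334 and 222. Both were higher without Nat1, and RNA more so.

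**Figure D2:**
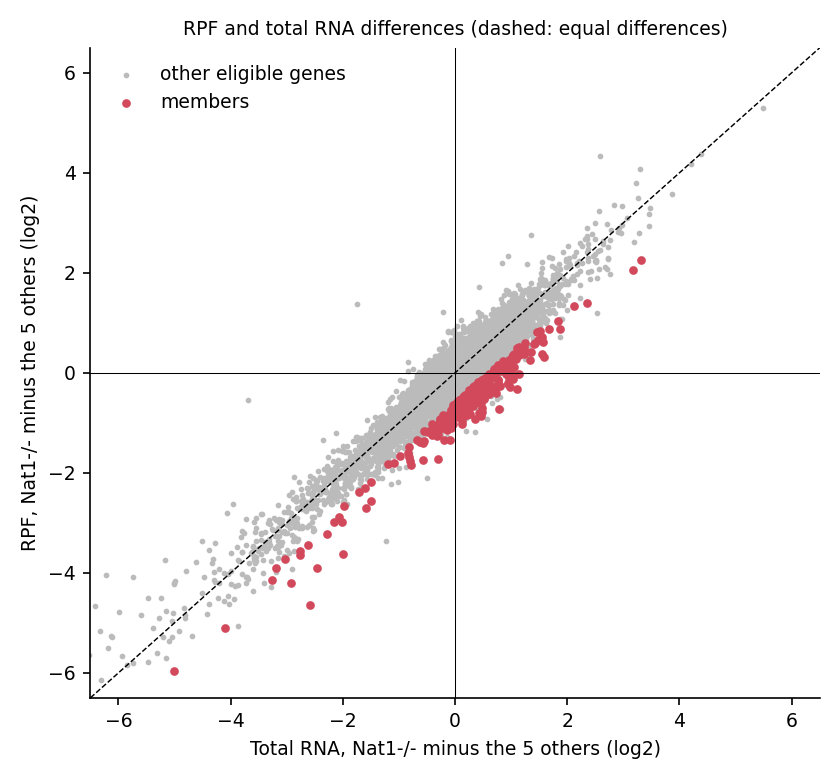
Difference between Nat1-/- and the 5 other cultures in total RNA (log2, horizontal axis) and in RPF (log2, vertical axis). Each point is a gene, coloured for the 267 genes and grey for other eligible genes, and 2 genes lie outside the axes; the 267 lie below the diagonal of equal change, spread over 139 with lower RPF and higher RNA, 77 lower in both and 51 higher in both.

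The 3 Nat1-/- clones did not lose TE equally. Relative to each gene's mean over 8 cultures, clone B12 had a median TE deviation of -0.61, clone B2 of -0.56 and clone C3 of -0.34. For all eligible genes these medians were -0.001, 0.004 and 0.025. B12 had the lowest TE of the 8 in 139 genes, B2 in 106 and C3 in 22, and C3 was the highest of the 3 clones in 190. These counts have no share over all eligible genes beside them, and nothing is read from them. Median deviations in footprints were close, at -0.25 in B12, -0.36 in B2 and -0.29 in C3. In total RNA they were 0.37, 0.23 and 0.03, against 0.05, 0.05 and 0.04 for all eligible genes. B12 was the only Nat1-/- culture with a deep total RNA library (42.5 M reads, against 16.4 M in B2 and 14.2 M in C3). For B12, clone and depth therefore cannot be told apart. Among the other cultures the median TE deviation was 0.09 in WTex1 and 0.21 in WTex2 and 0.38 to 0.45 in the Nat1+/- clones. The clones are named after these values were seen, and no test was made between them.

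**Figure D3:**
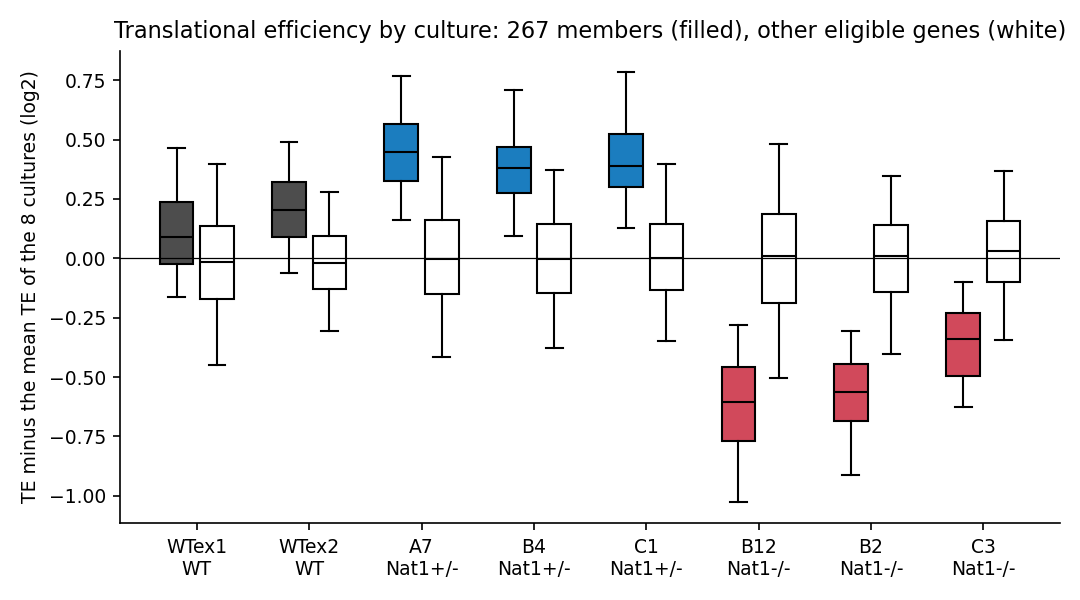
Deviation of TE from each gene's mean over 8 cultures (log2), with filled boxes for the 267 genes and white boxes for the 10523 other eligible genes in each culture. Boxes give the quartiles and whiskers the 5th to 95th percentile; the filled boxes of B12, B2 and C3 have medians of -0.61, -0.56 and -0.34 and those of the other cultures medians of 0.09 to 0.45.

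The 267 genes had low TE in WT cultures too. Mean WT TE had a median of -1.40, against -0.35 for the eligible genes. It lay below the eligible median in 244 genes (91.4%) and under the eligible first quartile in 189 (70.8%). Mean RPF had a median of 384 against 642, and mean total RNA 1383 against 887. The rule does not use the TE level as such, but it uses the WT values within its contrast, and footprints fall on coding sequence while RNA reads cover the untranslated parts, whose lengths were not used here. The highest mean RPF counts were those of Enah, Nup153 and Faf1 and the lowest those of Ap1s3, Nrtn and Atp2b2.

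The genes spanned more of the genome than the others. The RefSeq genomic span, introns included, had a median of 47.7 kb over the 266 genes matched, with quartiles of 20.4 and 89.2 kb. Over 10752 eligible genes matched it was 24.6 kb, with quartiles of 10.9 and 55.5 kb. On the X chromosome 2 of 356 eligible genes (0.562%) were among the 267, against 2.47% of all eligible genes. Among the autosomes the share ran from 1.18% on chromosome 16 (4 of 339) to 4.56% on chromosome 18 (12 of 263). No test was made between chromosomes, and nothing is read from these shares. Hist1h2ba (-1.18) is a histone gene, and whether reads shared with related histone genes affected its values was not tested.

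Nat1+/- cultures were also compared with WT cultures. The rule used the TE of these 5 cultures, 3 of them Nat1+/-, so a gene with high TE in Nat1+/- entered more easily, and the TE comparison and its RPF and RNA parts are descriptions that support nothing about the set. In 112 of the 267 genes (41.9%) the Nat1-/- mean was less than 0.6 below the WT mean. The median TE difference, Nat1+/- minus WT, was 0.26 (quartiles 0.12 and 0.40), against 0.02 for all eligible genes, and 231 of 267 genes (86.5%) were above 0, against 53.1%. The choice of genes moved this value. For the 198 genes that the same rule found with Nat1-/- set against WT alone the median was 0.086, with 60.1% above 0. For the 605 genes found against Nat1+/- alone it was 0.42, with 95.5% above 0. Every Nat1+/- TE lay above every WT TE in 163 genes (61.0%), against 26.4% of the eligible genes, and below in 11 (4.12%), against 20.4%. The comparison shares its WT cultures with the Nat1-/- difference. With every library thinned to the read total of the smallest the median was 0.27.

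Few single genes passed the test in TE. On simulated counts, drawn independently for the 2 assays, the limma TE fit recovered 11% of 2-fold and 75% of 4-fold changes. A gene without a call is therefore not shown to be unchanged. In the data, deviations from the genotype mean correlated at 0.49 to 0.86 between the 2 assays of a culture. The simulation lacks this, so recovery in the data may differ. The choice of genes used these TE values, so the shares below support nothing about the set. With limma, 7 of the 267 genes (2.62%) had higher TE in Nat1+/- at an adjusted p under 0.05, against 0.696% of the 12933 genes tested, and none had lower TE, against 0.433%. In either direction 1.13% of all tested genes were called. At an unadjusted p under 0.05 the counts were 92 higher and 2 lower, against 12.6% and 9.19%. edgeR called 13 of 267 higher, against 1.34% of the genes tested, and none lower, against 1.14%. DESeq2 called 30 of the 240 genes to which it gave an adjusted p higher, and none lower. Its shares of 4.13% and 3.15% are over all 12933 genes, those without an adjusted p included, so the denominators differ. No limma call was left without WT replicate 1 or 2 or without Nat1+/- replicate 1, 2 or 3, where 41 to 84 genes had an unadjusted p under 0.05. The shares over all genes there were 10.6% to 21.6%. No limma call was left either without the term that pairs the 2 libraries of a culture, where 17 genes had an unadjusted p under 0.05, against 5.13% of all genes.

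Nkain1, which encodes a membrane protein, had a TE of -1.55 and -1.44 in the WT cultures. The Nat1+/- cultures stood higher, at -0.34, -0.45 and -0.26, and the Nat1-/- cultures were lowest, at -1.82, -1.71 and -1.69. Nat1+/- exceeded WT by 1.14 ± 0.16 (SE), and Nat1-/- lay only 0.25 below WT, so Nkain1 met the rule through its Nat1+/- values. Its RPF counts in WT and Nat1+/- overlapped (176, 144, 157, 139 and 183), and its RNA was lower in Nat1+/- (515, 392, 199, 190 and 218). Rxra, a retinoid receptor, was higher in TE by 0.84 ± 0.14 (SE), from -2.51 and -2.54 to -1.79, -1.66 and -1.61. Cep170b, a centrosomal protein gene, was higher by 0.88 ± 0.16 (SE). Adgrl1, the adhesion receptor latrophilin 1, was higher by 0.77 ± 0.14 (SE) in TE, from -2.68 and -2.48 to -1.84, -1.89 and -1.69, and stood at -3.56, -3.78 and -3.29 in Nat1-/-. Uck2 (0.48), a uridine-cytidine kinase, and Dab2ip (0.64), a RAS GTPase-activating protein, completed the 6 with the smallest p.

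**Figure D4:**
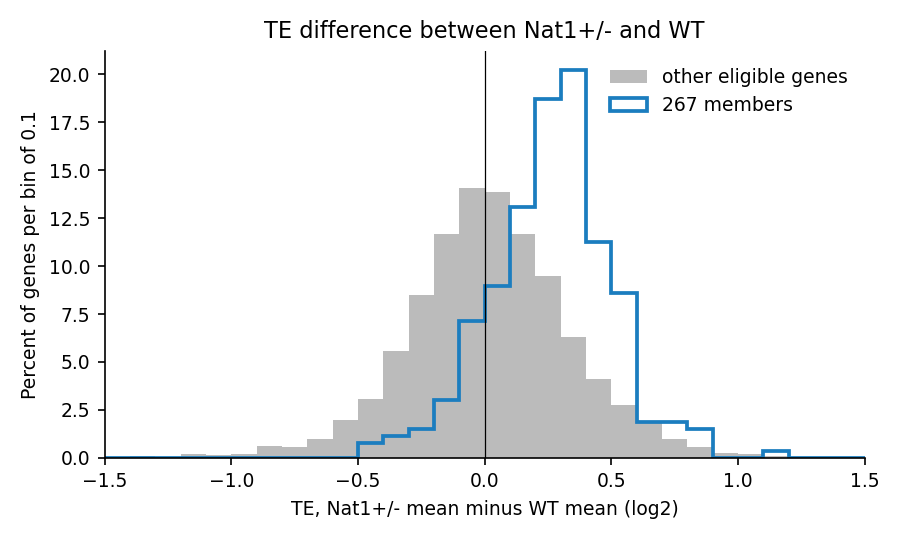
Share of genes (percent per bin of 0.1) by the TE difference of Nat1+/- minus WT on the log2 scale, as an outline for the 267 genes and in grey for the other eligible genes, of which 12 lie outside the axis. The outline has a median of 0.26 against 0.02 for all eligible genes, and the rule that chose the genes used the TE of these cultures.

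In the same comparison the median difference was 0.05 in RPF (all genes tested -0.01) and -0.26 in total RNA (all genes tested -0.02). limma called 9 genes higher in total RNA, against 4.60% of 13813 genes, and 38 lower, against 5.41%. Among those that fell were the AP-1 factor gene Fosl2 (-2.63 ± 0.28, SE; limma adjusted p = 0.0046), the zinc-finger factor gene Zic2 (-2.53 ± 0.37, SE; limma adjusted p = 0.0097), Jade2 (-1.35), Dlg4 (-1.43), Col1a2 (-4.19) and the ephrin gene Efnb2 (-2.91). Fosl2 total RNA was 415, 334, 44.1, 73.4, 64.2, 216, 273 and 191, lowest in the Nat1+/- cultures. Those that rose included the calcineurin gene Ppp3ca (1.17), the autophagy gene Atg2b (0.90), Heca (0.80), Mib1 (0.64), the planar polarity gene Celsr1 (1.00) and Camsap2 (0.71).

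In RPF, limma called 14 genes higher in Nat1+/-, against 5.35% of 13110, and 17 lower, against 5.13%. These shares are close to the background. Igsf21 (1.61), Mib1 (1.00), Celsr1 (1.43), Agap1 (0.76), Atg2b (1.12) and the co-repressor gene Tle3 (0.84) rose. Fosl2 (-2.04), BC005537 (-0.90), Efnb2 (-2.78), the protease inhibitor gene Timp2 (-1.87), the insulin receptor substrate gene Irs2 (-1.62) and Zic2 (-1.69) fell. Mib1, the ligase that activates Notch ligands, had RPF counts of 490, 568, 1047, 927, 1206, 515, 471 and 631. It was higher in all Nat1+/- cultures than in either WT culture, and Nat1-/- overlapped WT. Efnb2 had RPF counts of 539, 387, 35.8, 152, 51.4, 14.0, 18.7 and 19.4, lowest in the Nat1-/- cultures. The summed RPF of the 9 fibroblast markers other than Fn1 was also lower in Nat1+/- than in WT, and their part in these falls was not tested. Without WT replicate 1 or without WT replicate 2 no RPF or total RNA call was left. At an unadjusted limma p under 0.05 there were then 42 and 59 genes in RPF, against 13.7% and 22.8% of all genes, and 63 and 93 in total RNA, against 14.6% and 21.5%. Without Nat1+/- replicate 1 there were 1 RPF and 7 total RNA calls (0.64% and 1.34% of all genes). Without replicate 3 there were 5 and 14 (2.96% and 4.15%), and without replicate 2 there were 26 and 31 (9.27% and 7.73%).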

How the data were processed

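Ribosome-protected fragments and total RNA were sequenced from the same 8 cultures (TruSeq Ribo Profile kit, per the labels' protocols). The deposited tables hold a signal: gene counts that the authors divided by a library size factor. The submitters' processing notes name TopHat2 (2.1.0) and Bowtie2 (2.2.8), HTSeq (0.6.1), DESeq2, cutadapt (1.9.1) and bcl2fastq (2.17), with builds mm10 and GRCm38.p4. All deposited signal values (100%) came back as whole reads within a tolerance of 0.001, widened in proportion for large counts. No column was left unmapped.

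TE was computed with a pseudocount of 1. Nat1+/- was tested against WT on log2(value + 1) with limma 3.58.1, fitted over all 8 cultures and all genes with a mean of at least 10, with Benjamini-Hochberg adjustment at 0.05. The TE fit had a term for culture, since the labels pair the 2 libraries of a clone. The recovered reads were also tested with DESeq2 1.42.0 and with edgeR 4.0.16. Further alternatives were other pseudocounts, filters, scalings, thinning and leaving out each culture. Scripts ran in R 4.3.3 and Python 3.11.15 and were tested on simulated data.

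The genes, the family lists and the tests were chosen with earlier results of these data known. Genes were named by rank of TE difference within the whole set and each list (up to 4), by largest RPF fall and RNA rise, and by smallest p (up to 6 for each assay and direction). Other names were picked after their values were seen. A part of that rule that ranks proteins by length was not used here. 27 symbols in the table read as dates (2 among the 267), and 2 are repeated. Some genes that these rules would name are not reported here.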

Additional observations from a re-analysis of the deposited data

How the results depend on the processing

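The rule gave 226 to 360 genes under other pseudocounts, filters and scalings and after thinning, and 231 of the 285 found after thinning were shared with the 267. Leaving out 1 culture gave 255 to 493, with 411 without WT replicate 1 and 493 without Nat1-/- replicate 3, each sharing 260. The 5 cultures with shallow total RNA gave 551 and shared 240. The median TE difference between Nat1+/- and WT was 0.20 to 0.33 under other scalings, pseudocounts and left-out cultures. It was 0.086 for genes chosen against WT alone and 0.42 for genes chosen against Nat1+/- alone, alternatives chosen after seeing the data, as were thinning and the 5 cultures.

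Counts of calls moved more, for all genes too. The 7 higher TE calls (0.696% of all genes tested) became 23 with equal library sums (3.21%), 25 with TMM (3.86%), 13 with edgeR (1.34%), 30 with DESeq2 (4.13%), 47 with WT and Nat1+/- libraries alone (6.5%), 4 after thinning (0.549%) and 0 without the filter on low values, where 93 of the 267 had an unadjusted limma p under 0.05. Leaving out 1 Nat1+/- culture gave 0 TE calls (0% of all genes), 1 to 26 RPF calls (0.64% to 9.27%) and 7 to 31 total RNA calls (1.34% to 7.73%). In RPF, 31 calls (10.5% of all genes) became 52 with DESeq2 (19.2%) and 50 with WT and Nat1+/- libraries alone (20%). Their balance turned, from 14 higher and 17 lower (5.35% and 5.13% of all genes) to 31 and 21 (9.79% and 9.42%) and to 29 and 21 (10% and 9.91%). Without Nat1+/- replicate 3 it was 3 and 2 (1.63% and 1.34%). In total RNA, 47 calls became 83 with DESeq2 (18.5%), 83 with those libraries alone (19.8%) and 26 without the filter (5.29%). Over all genes, total RNA calls were 3.27% higher and 8.35% lower with equal library sums. The cause of these shifts was not tested. No single gene whose alternatives were computed changed direction.

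Same-numbered libraries were compared by the deviation of each gene from its genotype mean, not by their whole profiles. In RPF these deviations correlated at -0.10, -0.01 and -0.16 between Nat1+/- and Nat1-/-, and at -0.06 and -0.01 between WT and Nat1+/-. Between WT and Nat1-/-, where only 2 pairs exist, they correlated at 0.41 and 0.15. The numbers were therefore not taken to pair the genotypes. A replicate block gave 3 RPF calls (1.24%) and 4 total RNA calls (1.38%). With no replicate block, so that the 2 libraries of a culture were not paired, there were 0 TE calls. Depth limits TE most in the 11 genes with fewer than 10 reads in at least 1 library.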
